A study of Mus musculus with 4 samples.

Results

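Haemoglobin and erythroid genes were followed through 4 RNA-seq libraries of the mouse cochlea. The 9 genes were taken by name from the deposited tables after Ensembl identifiers had been matched to symbols, out of 37239 gene identifiers in all. They are the adult globin genes Hba-a1, Hba-a2, Hbb-bs and Hbb-bt, the haem enzyme gene Alas2, the red cell membrane genes Slc4a1 and Epb42, the nuclear erythroid gene Hemgn and the transferrin receptor gene Tfrc. The libraries came from whole cochleae at postnatal day 8. The wild-type animals were Ikzf2+/+ and the mutants were Ikzf2cello/cello littermates, which carry 2 copies of the cello allele. Ikzf2 encodes helios, a DNA-binding zinc finger protein related to Ikaros. No treatment is given in the labels. There were 2 libraries per genotype, and the labels call them biological duplicates without saying whether animals were pooled. P-values therefore measure the spread between these 4 libraries. The design asks how cochlear transcript levels differ between these genotypes.

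Red cells are made in the marrow from nucleated erythroblasts, which take up iron through the transferrin receptor, build haem and fill with haemoglobin, a tetramer of alpha and beta globin chains. Late erythroblasts expel the nucleus and leave as reticulocytes, which enter the blood still carrying globin mRNA. The cochlea lies in the temporal bone, and its capillaries, above all those of the stria vascularis, hold blood, while marrow spaces lie in the surrounding bone. Erythroid transcripts in a cochlear library can thus come from circulating cells or from precursors. In these bulk libraries fewer cells of a type and less RNA per cell cannot be told apart.

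The libraries held 42152616 to 49719984 counted alignments, and levels are given as CPM, in which the authors scaled reads to all counted alignments of a library. A single read was worth 0.0201 to 0.0237 CPM, and 70.01% to 72.8% of alignments lay in genes. All 10 cochlear marker genes were detected in every library. Pou4f3, a transcription factor gene of hair cells, had 27.2 and 27.8 CPM in the wild-type libraries and 14.5 and 15.3 CPM in the cello libraries. The cello libraries differed from each other in some other cochlear genes, and not in a single direction. Coch, made by fibrocytes, had 1162 CPM in replicate 1 of cello, 215 CPM in its replicate 2, and 327 and 334 CPM in the wild-type libraries. Tecta, a further marker gene, went the other way. Relative to its own mean over all libraries, its log2 level was -1.59 in cello replicate 1 and 1.23 in cello replicate 2. Its wild-type values on that scale were 0.11 and 0.25. The marker gene Otof differed little between the cello libraries, at 0.05 and -0.03.

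Across the 9 genes, 0 passed an adjusted p of 0.05 between genotypes in limma, beside 0% of the 14721 genes tested. In edgeR the count was also 0 of 9, beside 0%, and in DESeq2 it was 0, beside 1.32%, with the adjusted p of Epb42 left undefined. All 9 passed the filter on low values, which kept genes reaching 1 CPM in 2 or more libraries. At an unadjusted p under 0.05 the count in limma was also 0 of 9, beside 10.9% of all genes tested. It was 6 of 9 without wild-type replicate 2, beside 7.1% of all genes, 3 of 9 without wild-type replicate 1, all 3 below 0, beside 5.07%, and 3 of 9 without cello replicate 2, beside 17.3%. All 9 log2 fold changes lay above 0, beside 43.4% of all genes tested, with a median of 0.15 beside -0.03. These directions rested on single libraries and on the tool. Without wild-type replicate 1 only Hbb-bt and Tfrc, 2 of the 9, were above 0, and edgeR and DESeq2 put Hba-a1 (-0.029 and -0.034) and Alas2 (-0.016 and -0.022) below 0. On the log2(CPM + 0.5) scale the fold changes ran from 0.04 for Slc4a1 to 0.77 for Hbb-bt. The larger differences were between libraries of the same genotype. In wild-type, 7 of the 9 genes were at least 2-fold higher in replicate 2 than in replicate 1, a gap shown by 2.43% of all genes tested. In cello, 3 of the 9 were at least 2-fold higher in replicate 1 than in replicate 2, beside 2% of all genes tested. Wild-type replicate 1 was the lowest library for 6 of the 9 genes, beside 18.8% of all genes tested, and in each of the 9 except Tfrc the highest library was at least 2-fold above the lowest, beside 9.51%. These genes are not independent of each other, and the counts are a description of 4 libraries.

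**Figure D1:**
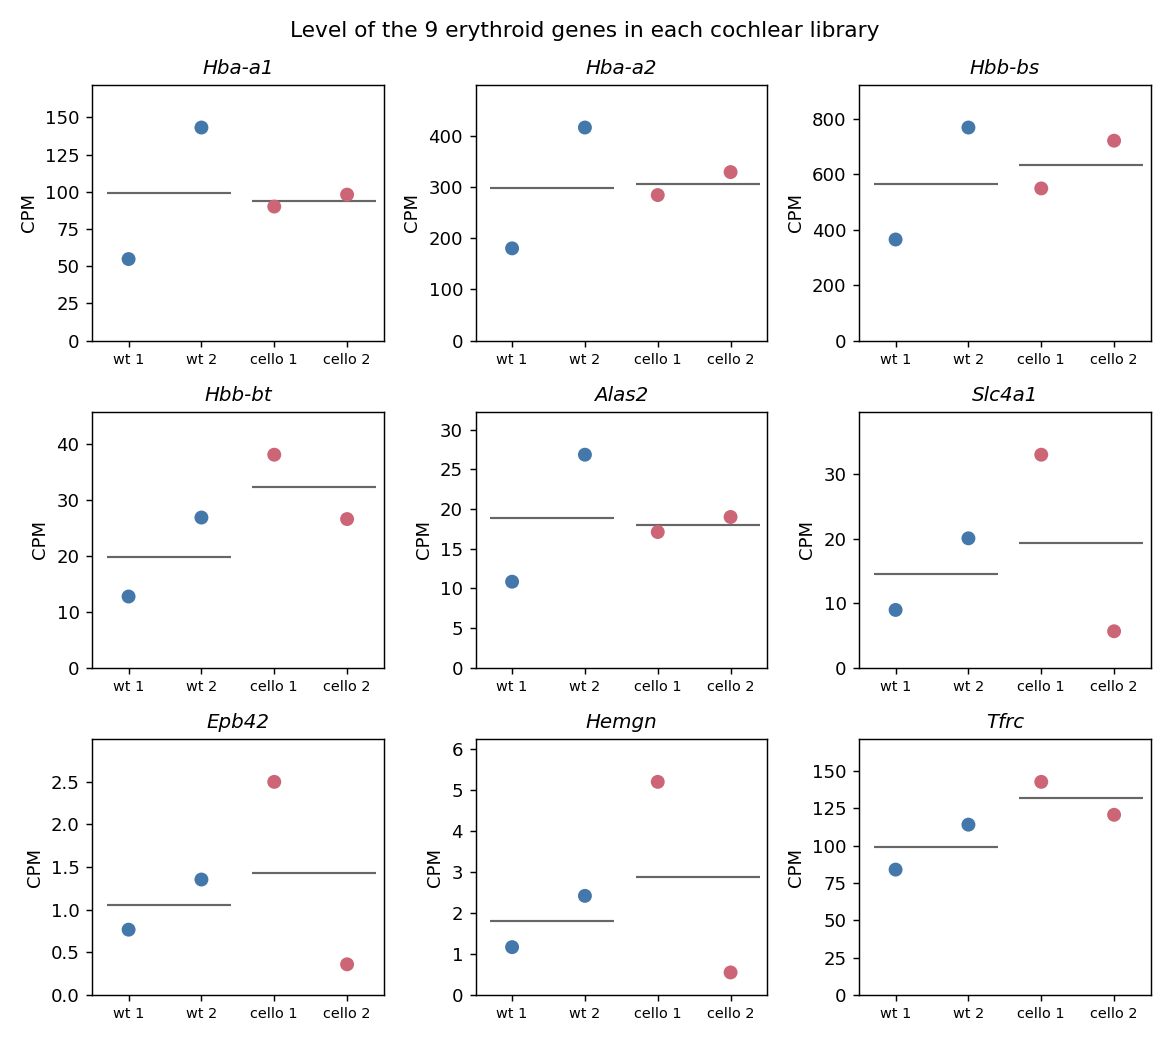
CPM of each of the 9 genes (vertical axis, linear from 0) in the wild-type (wt, blue) and cello (red) libraries, with 1 point per library and a grey line at the mean of each genotype. Wild-type replicate 1 is lowest for 6 genes, among them the 4 adult globin genes, and cello replicate 2 is lowest for Slc4a1, Epb42 and Hemgn.

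The adult globin genes encode the chains of haemoglobin and made up 0.0862% and 0.186% of reads in genes in the wild-type libraries and 0.135% and 0.168% in the cello libraries. The alpha genes Hba-a1 (chromosome 11, 32283511 to 32284465) and Hba-a2 (chromosome 11, 32296489 to 32297298) lie on the plus strand of GRCm38, with Hbq1b between them. The beta genes Hbb-bs (chromosome 7, 103826534 to 103828096) and Hbb-bt (chromosome 7, 103812524 to 103813996) lie on the minus strand. Each pair is almost identical in its coding part, which limits how far reads can be assigned to a copy. The stretch around the base at which each pair differs is shown, with that base in capitals.
Hba-a1: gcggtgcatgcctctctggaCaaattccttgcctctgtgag
Hba-a2: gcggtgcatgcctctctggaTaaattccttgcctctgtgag
Hbb-bs: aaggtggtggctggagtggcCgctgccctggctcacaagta
Hbb-bt: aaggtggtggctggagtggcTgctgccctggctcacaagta
Counted from 1 at the first base of the start codon, the 429 coding bases of the alpha pair differ by C381T and the 444 coding bases of the beta pair by C417T, each with the first-named gene as reference, in the GENCODE M21 transcripts. Of all stretches of 50 coding bases, 12.9% were unique to each alpha gene and 7.09% to each beta gene among annotated globin transcripts. With stretches of 100 bases the shares were 14.8% and 8.12%. Alignments that were not unique stood apart from genes in the deposited tables and held 13.03% to 14.6% of each library. The share of globin reads among them was not tested, and the split between copies is uncertain.

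Summed over the 4 genes, adult globin had 612 and 1354 CPM in the wild-type libraries and 960 and 1174 CPM in the cello libraries. Wild-type replicate 1 was the lowest library and wild-type replicate 2 the highest, so that both cello libraries lay between the wild-type ones. The wild-type mean was 983 ± 525 CPM and the cello mean 1067 ± 151 CPM (SD, n = 2 each). The difference between the means of log2 values, 9.83 in wild-type and 10.05 in cello, was 0.22. An exact permutation test, two-sided, gave p = 1.0, where 2 against 2 libraries cannot go below 0.333. Leaving out wild-type replicate 1 gave -0.35, and leaving out replicate 2 gave 0.80.

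The beta chain gene Hbb-bs, the most abundant of the 9, had 364 and 768 CPM in the wild-type libraries and 548 and 720 CPM in the cello libraries. Its groups overlapped, and the log2 fold change was 0.25 (SE 0.37, limma, adjusted p = 0.815). Hba-a2, an alpha chain gene, had 180.0 and 416 CPM in the wild-type libraries and 284 and 329 CPM in the cello libraries. Here too the wild-type libraries enclosed the cello ones, with a log2 fold change of 0.16 (SE 0.39, limma, adjusted p = 0.889). Its copy Hba-a1 had 54.8 and 143 CPM in the wild-type libraries and 90.1 and 98.1 CPM in the cello libraries. Its fold change of 0.08 on the log2 scale (SE 0.44) was far smaller than the 2.61-fold gap between the wild-type libraries. Of the alpha-globin reads, Hba-a1 took 23.3% and 25.6% in wild-type and 24.1% and 23.0% in cello, a narrow range beside the gaps of 2.61-fold and 2.31-fold in level between the wild-type libraries.

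Hbb-bt, the other adult beta gene, departed from the other 3 in cello replicate 1. It had 12.8 and 26.9 CPM in the wild-type libraries and 38.2 and 26.6 CPM in the cello libraries, with its highest value in cello replicate 1. Its log2 fold change of 0.77 (SE 0.37) was the largest of the 9 and did not pass in limma (unadjusted p = 0.093, adjusted p = 0.509). DESeq2 gave an unadjusted p of 0.036. Without wild-type replicate 1 the log2 fold change of Hbb-bt in limma was 0.24. Of the beta-globin reads, Hbb-bt took 3.38% (exact Clopper-Pearson 95% interval 3.13% to 3.65%) in wild-type replicate 1 and 3.39% (3.19% to 3.59%) in wild-type replicate 2. The share was 6.51% (6.21% to 6.82%) in cello replicate 1 and 3.57% (3.38% to 3.76%) in cello replicate 2. The intervals of 3 libraries overlapped, and that of cello replicate 1 lay above them. These intervals, from reads without molecular identifiers, cover counting error only.

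The remaining globin genes were at or near 0 reads. Hba-x and Hbb-bh1, which serve embryonic red cells, had 0 reads in all 4 libraries, which allows a level of up to 0.0603 to 0.0712 CPM depending on the library. Hbb-y, a further embryonic beta-like gene, stood at 0.0201, 0, 0.0236 and 0.0211 CPM over wild-type and cello, or at most 1 read. Hbb-bh2 had 1 read in cello replicate 2 and 0 elsewhere. Of the 2 theta-like genes, Hbq1b reached 0.214 CPM in wild-type replicate 2 and Hbq1a 0.0632 CPM in cello replicate 2. None of these 6 genes entered the test.

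Alas2 encodes the erythroid form of the enzyme that starts haem synthesis, lies on chromosome X (150547375 to 150570638, plus strand) and followed the globin genes. It had 10.8 and 26.9 CPM in the wild-type libraries and 17.1 and 19.0 CPM in the cello libraries. As with Hba-a1, Hba-a2 and Hbb-bs, wild-type replicate 1 was lowest, wild-type replicate 2 highest and the cello libraries lay between them. That order was shown by 3.07% of all genes tested. Its log2 fold change was 0.07 (SE 0.41, limma, adjusted p = 0.956). Counted against globin, Alas2 gave 17.7 and 19.8 reads per 1000 adult globin reads in wild-type and 17.8 and 16.2 in cello, a range of 1.23-fold. The gene lies within Apex2 on the opposite strand, which stood at 5.04 to 6.10 CPM, and without a known strand setting reads of overlapping parts cannot be told apart.

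**Figure D2:**
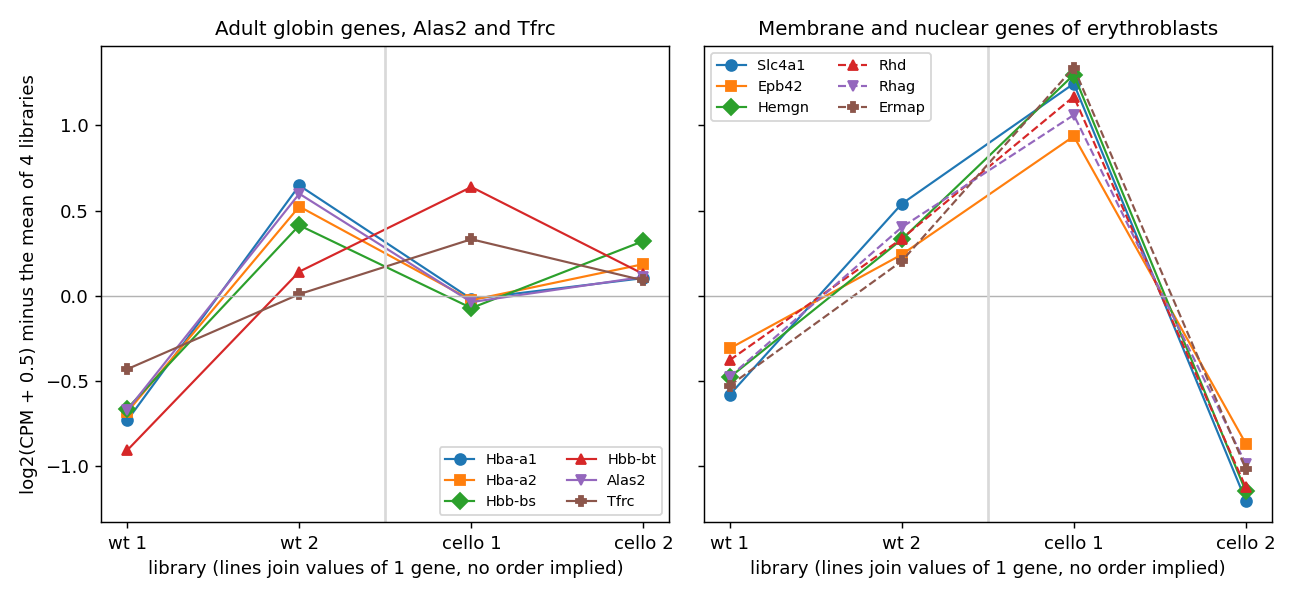
Level of each gene relative to its own mean over the 4 libraries (vertical axis, log2 of CPM + 0.5) for globin genes, Alas2 and Tfrc on the left and for membrane and nuclear erythroid genes on the right, with solid lines for the 9 genes and dashed lines for Rhd, Rhag and Ermap. On the left the low library is wild-type replicate 1, and on the right all 6 genes are highest in cello replicate 1 and lowest in cello replicate 2.

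The stretches before the transcription starts of Hba-a2, Hbb-bs and Alas2, which varied together, and of Hbb-bt, which departed from them, are shown, with 2 motifs in capitals on either strand, GATAA (or TTATC), bound by GATA factors such as the erythroid factor GATA1, and CACCC (or GGGTG), bound by KLF factors such as the erythroid factor KLF1. The sequences are the 150 bases before the RefSeq start of GRCm38.p6, 5′ to 3′, at chr7:103827929-103828078 (minus strand), chr7:103813924-103814073 (minus), chr11:32296342-32296491 (plus) and chrX:150547267-150547416 (plus).
Hbb-bs: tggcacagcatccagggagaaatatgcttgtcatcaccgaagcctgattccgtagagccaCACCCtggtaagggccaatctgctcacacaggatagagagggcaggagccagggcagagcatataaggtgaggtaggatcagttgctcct
Hbb-bt: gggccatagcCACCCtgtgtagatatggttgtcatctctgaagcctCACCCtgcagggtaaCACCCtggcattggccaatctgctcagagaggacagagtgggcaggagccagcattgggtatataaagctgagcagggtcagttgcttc
Hba-a2: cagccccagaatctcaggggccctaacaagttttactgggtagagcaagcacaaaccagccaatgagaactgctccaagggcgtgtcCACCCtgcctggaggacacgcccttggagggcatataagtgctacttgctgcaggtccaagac
Alas2: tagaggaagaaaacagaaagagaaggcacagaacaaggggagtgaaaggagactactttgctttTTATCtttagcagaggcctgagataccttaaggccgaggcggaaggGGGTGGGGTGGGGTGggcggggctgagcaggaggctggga
In this window Hbb-bt held 3 CACCC motifs, Hbb-bs and Hba-a2 1 each, and Alas2 3 side by side with no shared base, with 1 GATAA motif in Alas2 alone. Over all 32851 RefSeq promoters of the table, 37.4% held CACCC and 13.3% GATAA within these 150 bases, and 3.99% held both. In the 250 bases before the start each of the 4 globin genes held 1 GATAA motif, which 22.6% of promoters do. Hba-a1 matched Hba-a2 at all 147 bases compared, after a shift of 3 bases. A match describes letters and not a bound site.

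Slc4a1, Epb42 and Hemgn varied in another way. Slc4a1 encodes band 3, the anion exchanger of the red cell membrane (chromosome 11, 102348824 to 102366203, minus strand). It had 8.95 and 20.05 CPM in the wild-type libraries and 33.0 and 5.65 CPM in the cello libraries. The cello libraries thus held both the highest and the lowest value, 5.84-fold apart, and the log2 fold change between genotypes was 0.04 (SE 0.84, limma, adjusted p = 0.987). Epb42 encodes protein 4.2, which ties band 3 to the membrane skeleton (chromosome 2, 121017891 to 121037072, minus strand). It had 0.764 and 1.35 CPM in the wild-type libraries and 2.50 and 0.358 CPM in the cello libraries, from 38, 57, 106 and 17 reads. Hemgn encodes hemogen, a nuclear protein of erythroid precursors (chromosome 4, 46393989 to 46413506, minus strand), and had 1.17 and 2.42 CPM in the wild-type libraries and 5.21 and 0.548 CPM in the cello libraries. It rested on 26 to 221 reads, and the 9.50-fold gap between the cello libraries was the largest of the 9 genes. The exact Poisson 95% interval for Hemgn ran from 4.54 to 5.94 CPM in cello replicate 1 and from 0.358 to 0.803 CPM in cello replicate 2. The order of these 3 genes, with cello replicate 1 highest and cello replicate 2 lowest, was shown by 8.91% of all genes tested.

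Their summed level was 10.9 and 23.8 CPM in wild-type and 40.7 and 6.55 CPM in cello. The cello libraries lay 6.21-fold apart on this sum, whereas their summed globin levels lay 1.22-fold apart and in the opposite order. The log2 difference between genotypes was 0.02 (exact permutation test, two-sided, p = 1.0, where the smallest possible p is 0.333). It was -1.30 without cello replicate 1, 1.34 without cello replicate 2, -0.54 without wild-type replicate 1 and 0.59 without the other wild-type library, so that its direction rested on single libraries. In the count tests, which average reads and not logarithms, the log2 fold changes of Slc4a1, Epb42 and Hemgn were 0.46, 0.47 and 0.73 in edgeR and 0.46, 0.48 and 0.73 in DESeq2, and none passed.

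Per 1000 adult globin reads, Slc4a1 gave 14.6 and 14.8 reads in wild-type and 34.4 and 4.81 in cello. The wild-type libraries agreed on this measure although their globin levels differed 2.21-fold. Hemgn gave 1.91 and 1.79 reads per 1000 globin reads in wild-type and 5.42 and 0.467 in cello. Epb42 gave 1.25 and 0.999 in wild-type and 2.60 and 0.305 in cello. For all 3 genes the wild-type values lay between the cello values. As a share of Slc4a1 and adult globin reads together, Slc4a1 took 1.44% (exact 95% interval 1.31% to 1.58%) and 1.46% (1.36% to 1.56%) in wild-type, and 3.32% (3.153% to 3.498%) and 0.479% (0.423% to 0.539%) in cello. These are single libraries, with no replicate of either cello value.

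**Figure D3:**
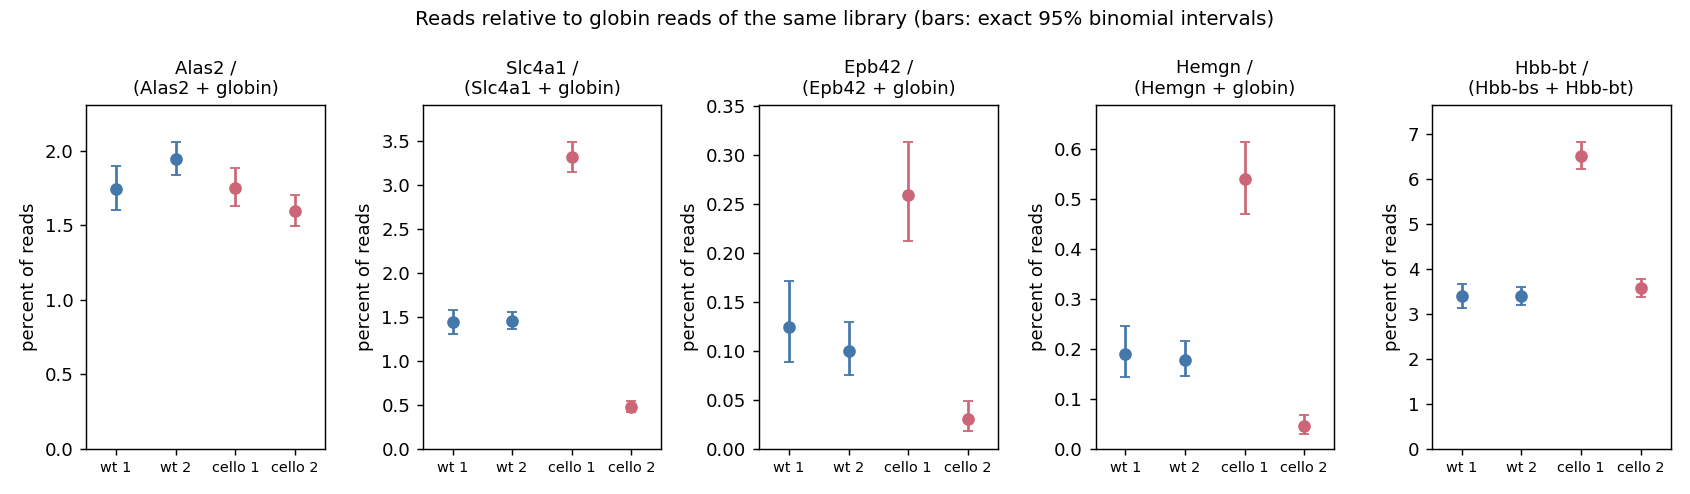
Reads of Alas2, Slc4a1, Epb42 and Hemgn as a percent of their own and the adult globin reads, and reads of Hbb-bt as a percent of beta-globin reads (vertical axes, percent, from 0), in each library, with exact 95% binomial intervals for counting error. Alas2 runs from 1.59% to 1.95%, and its intervals in wild-type replicate 2 (1.83% to 2.06%) and cello replicate 2 (1.49% to 1.70%) do not overlap. Slc4a1, Epb42, Hemgn and Hbb-bt are highest in cello replicate 1.

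The promoters of Hemgn and Epb42 are shown for comparison with those of the globin genes, on the same scale of 150 bases before the RefSeq start, at chr4:46404184-46404333 and chr2:121036878-121037027 (both minus strand).
Hemgn: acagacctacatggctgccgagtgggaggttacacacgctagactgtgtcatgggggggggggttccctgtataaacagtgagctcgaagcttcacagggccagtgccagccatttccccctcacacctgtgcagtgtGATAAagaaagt
Epb42: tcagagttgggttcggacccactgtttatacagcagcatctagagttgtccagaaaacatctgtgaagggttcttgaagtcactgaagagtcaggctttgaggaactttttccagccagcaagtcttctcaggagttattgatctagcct
Hemgn held 1 GATAA motif, 12 bases before the start, and neither gene held CACCC in this window. Epb42 held 1 GATAA motif within 250 bases. Both windows lie inside the gene spans of the GENCODE annotation, which reach 46413506 for Hemgn and 121037072 for Epb42. The bases before the outermost GENCODE starts of these 2 genes were not examined.

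Tfrc encodes the transferrin receptor, which brings iron into erythroblasts and also into most dividing cells (chromosome 16, 32608920 to 32632794, plus strand). It had 83.9 and 114 CPM in the wild-type libraries and 143 and 121 CPM in the cello libraries. Both cello libraries lay above both wild-type libraries, which was so for 1 of the 9 genes and for 16.9% of all genes tested. Both cello libraries lay below both wild-type libraries for 0 of the 9, beside 28.7%. The log2 fold change was 0.42 (SE 0.17, 95% interval -0.01 to 0.86), and limma gave an unadjusted p of 0.055 and an adjusted p of 0.463. The unadjusted p for Tfrc was 0.033 to 0.045 in limma under 3 other scalings, 0.045 in edgeR and 0.016 in DESeq2, and none passed after adjustment. The log2 fold change of Tfrc in limma was 0.20 without wild-type replicate 1. Tfrc varied least of the 9, with its highest library 1.70-fold above the lowest.

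Per kilobase of annotated exon, which allows levels to be compared between genes, Hbb-bs led at 474 to 999 CPM per kilobase and Hba-a2 followed at 270 to 624. Their ranges overlap, yet Hbb-bs was higher in each library. Hba-a1 stood at 67.4 to 176 CPM per kilobase, Hbb-bt at 18.1 to 54.3 and Tfrc at 13.6 to 23.1, and the last 2 overlapped. Alas2 stood at 4.51 to 11.2 and Slc4a1 at 1.15 to 6.75 CPM per kilobase, again with overlapping ranges. The lowest were Hemgn at 0.218 to 2.07 and Epb42 at 0.0661 to 0.461 CPM per kilobase. The order of the globin copies carries the uncertainty of their assignment.

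**Figure D4:**
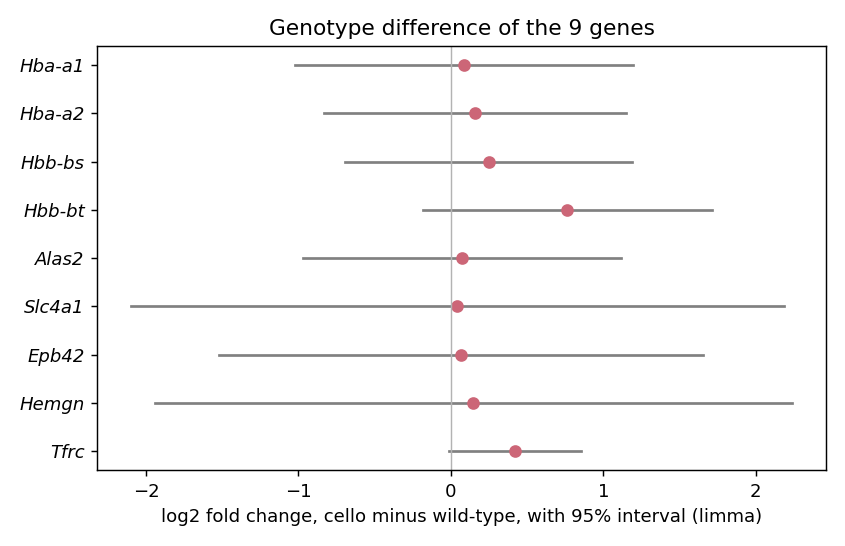
Log2 fold change of each gene between cello and wild-type (horizontal axis, log2(CPM + 0.5), points) with its 95% interval from limma (grey lines), for 2 libraries per genotype. Every interval includes 0, and those of Slc4a1 and Hemgn are the widest.

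Genes of the wider erythroid programme were counted by lists. In the list of red cell membrane and skeleton genes, 15 further genes were listed and 13 tested, and 0 passed in limma, with 7 above 0, 6 below 0 and a median of 0.03. Ermap, an erythroid membrane protein gene, stood at 1.59 and 2.97 CPM in wild-type against 7.11 and 0.990 CPM in cello. It was highest in cello replicate 1 and lowest in cello replicate 2, as were 7 of the 15, beside 8.91% of all genes tested. Ank1, the ankyrin of the red cell skeleton that nerve and muscle also express, had 7.26 and 20.7 CPM in the wild-type libraries and 32.8 and 29.3 CPM in the cello libraries (log2 fold change 1.30, SE 0.46, limma, adjusted p = 0.442). It was high in both cello libraries, unlike Slc4a1. Tmod1, which caps actin filaments in red cells and other tissues, stood lower in both cello libraries (182 and 188 against 126 and 141 CPM, log2 fold change -0.47, limma, adjusted p = 0.419), and Epb41, the gene of protein 4.1, likewise (-0.21, adjusted p = 0.453).

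Erythroid transcription factor and receptor genes apart from Hemgn numbered 9, of which 7 were tested. In limma 0 passed, with 4 above and 3 below 0 and a median of 0.11. Klf1, a master regulator of globin genes, had 0.784 and 1.30 CPM in the wild-type libraries and 3.09 and 0.716 CPM in the cello libraries. Tal1, a factor of blood and endothelial cells, had 2.90 and 2.70 CPM in the wild-type libraries and 5.30 and 1.96 CPM in the cello libraries. Both were highest in cello replicate 1 and lowest in cello replicate 2, as were 6 of the 9, beside 8.91% of all genes tested. Nfe2 (-0.46), Zfpm1 (-0.24) and Lmo2 (0.19), the members with the smallest p, did not pass (limma, adjusted p = 0.441, 0.445 and 0.750).

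The rest of the haem pathway ranged at most 1.68-fold between libraries, beside 2.48-fold for Alas2. Of the 8 other enzyme genes, all of them tested, 0 passed in limma, 2 lay above 0 and 6 below, and the median was -0.11. Of the 8, 1 was highest in cello replicate 1 and lowest in cello replicate 2, beside 8.91% of all genes tested. Alas1, the form used by all tissues, had 40.0 and 44.1 CPM in the wild-type libraries and 38.9 and 36.7 CPM in the cello libraries. Fech, which inserts the iron, had 81.3 and 87.6 CPM in the wild-type libraries and 78.1 and 81.7 CPM in the cello libraries. Alad, the enzyme after Alas2, had 99.2 and 94.3 CPM in the wild-type libraries and 59.0 and 92.1 CPM in the cello libraries, with its low value in cello replicate 1. Groups did not overlap for 5 of the 8, beside 45.6% of all genes tested, among them Ppox, higher in cello, and Alas1, Alad and Urod, lower in cello. Ppox, the enzyme of the next to last step, had the smallest p, with a log2 fold change of 0.41, and did not pass (limma, adjusted p = 0.457).

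Of 12 other genes of iron uptake and mitochondrial iron import, 10 were tested and 0 passed in limma, with 6 above 0, 4 below 0 and a median of 0.04. Of the 12, 3 were highest in cello replicate 1 and lowest in cello replicate 2, beside 8.91% of all genes tested. Steap3, the iron reductase of erythroid endosomes, had 110 and 131 CPM in the wild-type libraries and 95.03 and 81.03 CPM in the cello libraries (log2 fold change -0.45, SE 0.13, limma, adjusted p = 0.425). Glrx5, a gene of iron-sulphur cluster assembly, had a log2 fold change of -0.25 (adjusted p = 0.437). Trf, the gene of transferrin, had 4.204 and 4.34 CPM in the wild-type libraries and 8.65 and 4.42 CPM in the cello libraries. Among 17 late erythroblast and red cell enzyme genes 15 were tested and 0 passed, with a median of -0.03. Of the 17, 5 were highest in cello replicate 1 and lowest in cello replicate 2, Car1 and Trim10 among them. The carbonic anhydrase gene Car1 had 1.05 and 0.925 CPM in the wild-type libraries and 3.27 and 0.822 CPM in the cello libraries, and Trim10, a gene of erythroid maturation, at 0.463 and 1.47 against 1.74 and 0.442 CPM. The members with the smallest p were Bpgm (-0.19), which makes the ligand that lowers haemoglobin's oxygen affinity, Blvrb (-0.18) and Prdx2 (-0.18), a peroxiredoxin gene (limma, adjusted p = 0.527, 0.531 and 0.566). Of 9 genes of haem breakdown and iron storage 8 were tested and 0 passed. Only 1 of these 9, Hp, was highest in cello replicate 1 and lowest in cello replicate 2. Hmox1, which opens the haem ring, had 11.2 and 14.0 CPM in the wild-type libraries and 13.3 and 15.4 CPM in the cello libraries, and Hp, the gene of the haemoglobin scavenger haptoglobin, at 0.744 and 1.23 against 4.31 and 0.274 CPM.

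Markers of some other cells differed between the cello libraries in the same direction as the membrane and nuclear erythroid genes. The 15 neutrophil and marrow granule genes summed to 59.7 and 87.0 CPM in wild-type and to 220 and 42.0 CPM in cello, a 5.23-fold gap between the cello libraries beside 6.21-fold for Slc4a1, Epb42 and Hemgn. Of these 15 genes, 10 of them tested, 13 were highest in cello replicate 1 and lowest in cello replicate 2. That order was shown by 8.91% of all genes tested. Ctsg and Fcnb were at 0 in cello replicate 2. S100a8, a calcium-binding protein gene of neutrophils, had 3.54 and 7.54 CPM in the wild-type libraries and 21.3 and 1.71 CPM in the cello libraries. Its partner S100a9 had 5.55 and 14.4 CPM in the wild-type libraries and 33.1 and 2.30 CPM in the cello libraries. The 11 bone genes summed to 1559 and 1715 CPM in wild-type and to 3290 and 1203 CPM in cello. All 11 were tested, 10 of 11 were in that order and none was at 0. Of 10 B lineage genes, 4 of them tested, 7 had that order, and Iglc1 was at 0 in wild-type replicate 2 and cello replicate 2. Cd79b, a part of the B cell receptor, had 0.322 and 1.09 CPM in the wild-type libraries and 1.72 and 0.485 CPM in the cello libraries. The sum of that list, 129 to 138 CPM, was mostly Ebf1, which ranged only from 104 to 115 CPM. The part of marrow, bone and vessels in the level of the erythroid genes was not tested.

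Between the wild-type libraries, the summed level in replicate 2 was 2.21-fold that in replicate 1 for adult globin and 2.19-fold for Slc4a1, Epb42 and Hemgn. The same ratio was 1.46-fold for neutrophil genes and 1.100-fold for bone genes. The 10 endothelial genes summed to 331 and 329 CPM in wild-type and to 446 and 294 CPM in cello. All 10 were tested and were highest in cello replicate 1. Of them, 8 were also lowest in cello replicate 2, the order seen in neutrophil and bone genes and in 8.91% of all genes tested. The 10 macrophage genes, 9 of them tested, summed to 292 and 284 against 344 and 301 CPM, with 2 of 10 in that order. The 10 megakaryocyte and platelet genes, 3 of them tested, summed to 24.0 and 22.7 against 25.1 and 19.95 CPM, with 4 of 10 in that order. Gp6 was at 0 in wild-type replicate 1 and cello replicate 2. In these 3 lists the wild-type libraries lay close together where their globin levels did not.

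**Figure D5:**
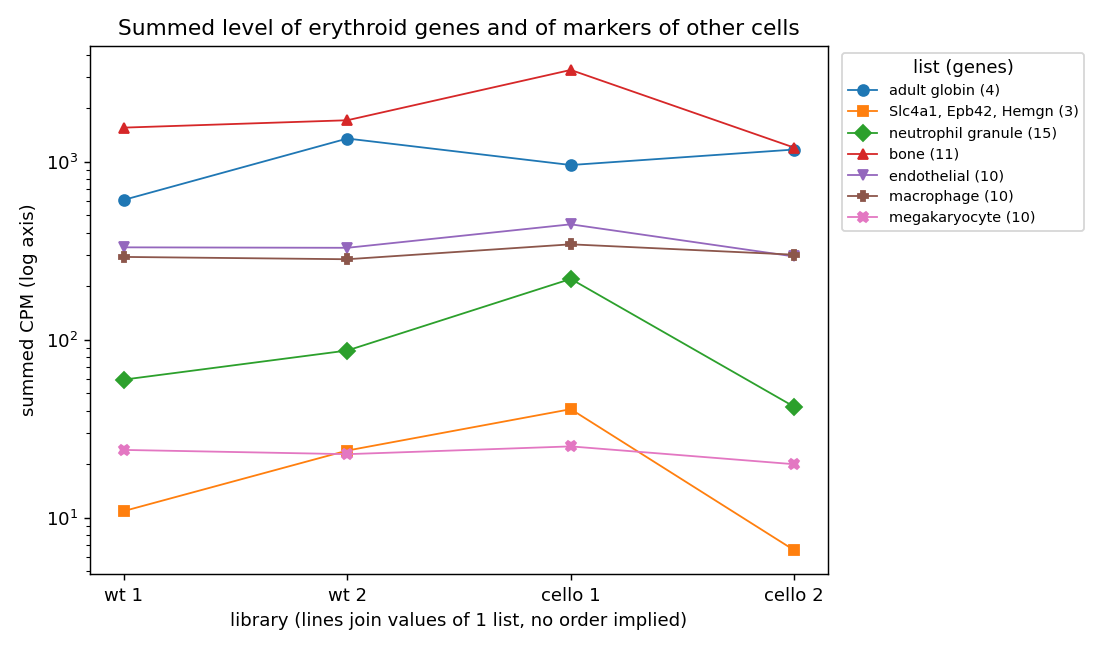
Summed CPM (vertical axis, log scale) of the adult globin genes, of Slc4a1, Epb42 and Hemgn, and of marker lists of other cells in each library, with the number of genes in brackets. Neutrophil and bone genes peak in cello replicate 1 and are lowest in cello replicate 2, as are Slc4a1, Epb42 and Hemgn, while adult globin is lowest in wild-type replicate 1.

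The genes nearest in pattern to each set were found by the root mean square difference of centred log2(CPM + 0.5) profiles over the 4 libraries. Among the nearest to Slc4a1, Epb42 and Hemgn were the red cell membrane genes Rhd (0.05) and Rhag (0.07), the neutrophil gene Lcn2 (0.08), and Ermap (0.13). Rhd had 0.905 and 1.80 CPM in the wild-type libraries and 3.60 and 0.337 CPM in the cello libraries, and Rhag had 0.664 and 1.64 against 2.87 and 0.316 CPM. Nearest to the mean profile of the 4 adult globin genes were Kcnd2 (0.01), Celf3 (0.03), Cdk5r1 (0.08), Cpne9 (0.08) and Tubg2 (0.11), of which Kcnd2, a potassium channel gene, Celf3 and Cdk5r1 are known from neurons. Kcnd2 had 0.603 and 2.06 CPM in wild-type and 1.55 and 1.62 CPM in cello. Celf3 had 0.784 and 2.23 against 1.77 and 1.90 CPM. At such low levels the added 0.5 narrows gaps more than for globin genes, so their small differences are not matches in CPM ratios. Cdk5r1 had 3.68 and 8.33 CPM in the wild-type libraries and 7.33 and 8.11 CPM in the cello libraries, so that it too was lowest in wild-type replicate 1. Among the 9 genes, Alas2 lay 0.13 from the globin profile and Slc4a1 0.89.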

How the data were processed

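RNA of 4 whole-cochlea libraries was prepared with a TruSeq kit, per the labels. The submitters' processing notes name TopHat and GRCm38. The counter, its strand setting and its annotation were not given in the sources used here. The deposited values are CPM per gene, which the authors scaled to every counted alignment. In each file 5 entries stand for no gene; they held 27.2% to 29.99% of alignments and entered no test. Each value was a whole multiple of the smallest one in its file (100% of values, tolerance 0.001 of a read), which gave back the read counts.

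Symbols were found for 36504 of 37239 identifiers, and positions for 36588, in GENCODE M21. Genes with at least 1 CPM in 2 libraries, 14721 in all, were fitted as log2(CPM + 0.5) by genotype in limma 3.58.1 (R 4.3.3). The fit used a trended prior variance, tests were two-sided, and p-values were adjusted over all genes by Benjamini-Hochberg with a threshold of 0.05. On recovered reads, edgeR 4.0.16 called 0 genes and DESeq2 1.42.0 called 195 (1.32%), none of them among the 9 genes; DESeq2 left the adjusted p of Epb42 undefined. The limma, edgeR and DESeq2 steps were also run on simulated counts. The spread between simulated libraries was set in advance and not taken from these libraries. That run therefore does not show how the steps perform at the spread seen here. Fold changes are cello minus wild-type. Adding 0.5 narrows gaps between libraries of low genes. A fold change between genotypes need not shrink with it, and that of Hemgn was 0.19, 0.15 and 0.05 with pseudocounts of 1, 0.5 and 0.1. Promoters are from RefSeq (GRCm38.p6), where 8 of the 9 genes had an entry. Python 3.11.15 and matplotlib 3.10.9 were used.

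The members and lists were chosen with earlier results of these data known. All 9 genes are named, and of each other list up to 3 genes with the smallest p and up to 3 with the largest range over libraries, the globin and haem lists in full, and the 5 genes nearest in pattern, except a few that are not reported here. Ctsg, Fcnb, Gp6 and Iglc1 were named after their values were seen, because they were at 0. Other settings tried were the pseudocount (0.1 or 1), the filter (none, or mean CPM of 5 and over), 3 scalings, no variance trend, a replicate block, edgeR, DESeq2, and the omission of each library.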

Additional observations from a re-analysis of the deposited data

How the results depend on the processing

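Alternative settings gave 133 log2 fold changes for the 9 genes, of which 16 changed sign. Of these, 0 passed an adjusted p of 0.05, with that of Epb42 in DESeq2 undefined. The filter, the variance trend and the replicate block cannot change a log2 fold change, so values under those settings could not change sign. With 2 libraries per genotype, leaving out 1 library decided most directions. The log2 fold changes then ran from -0.60 to 0.77 for Hba-a1, -0.44 to 0.76 for Hba-a2, -0.29 to 0.79 for Hbb-bs, -0.56 to 0.71 for Alas2, -1.18 to 1.27 for Slc4a1, -0.83 to 0.97 for Epb42 and -1.07 to 1.37 for Hemgn, and stayed above 0 for Hbb-bt (0.24 to 1.29) and Tfrc (0.20 to 0.64). The summed globin difference ran from -0.35 to 0.80 and that of Slc4a1, Epb42 and Hemgn from -1.30 to 1.34. In these fits the lone library is assumed to vary like the other group. Hba-a1 and Alas2 stood at -0.029 and -0.016 in edgeR and at -0.034 and -0.022 in DESeq2. Their mean CPM, taken before logarithms, was also lower in cello than in wild-type (94.1 against 99.0 for Hba-a1 and 18.1 against 18.8 for Alas2). Epb42 stood at -0.039 with a pseudocount of 0.1. The cause of these sign changes was not tested. Epb42 and Hemgn have no value at a mean CPM of at least 5. The count of genes called over the whole table, 0 in limma (1603 at an unadjusted p under 0.05), was 195 in DESeq2 and ran from 0 to 90 when 1 library was left out, the 90 being without wild-type replicate 2. The replicate block left it at 0. In this balanced design the block cannot change a difference between genotype means, so the summed differences of 0.22 and 0.02 were the same by construction. Replicate numbers share no stated litter or day, and same-numbered deviations correlated at 0.13 over genes. Depth limits Epb42 most, with 17 to 106 reads.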
